A study of Mus musculus with 6 samples.

Results

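Calmodulin and the kinases that it switches on were followed in mouse neutrophils that either depolarized or stayed polarized during calcium entry. The set held 9 genes of 41388 listed, taken by mouse symbol from the Ensembl identifiers of the count files: the calmodulin genes Calm2 and Calm3, the upstream kinase genes Camkk1 and Camkk2, the kinase genes Camk1, Camk1d and Camk4, and the calmodulin kinase II genes Camk2d and Camk2g. All 9 identifiers were found once. Of these, 8 passed the filter on low counts and entered the test, and Camk4 did not.

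All libraries came from bone marrow neutrophils of C57BL/6 mice loaded with the voltage dye DIBAC4(3) at 250 nM and given 100 nM ionomycin, a calcium ionophore. The depolarized group and the polarized group had 3 libraries each, from 20000 cells sorted on dye fluorescence between 2 and 4 minutes after the ionophore, and no unstimulated cells were analysed here. The submitters describe 3 biological replicate pairs, which share a code in their titles and are named A, B and C here, in the order of those codes. The cells were sorted within minutes of the stimulus, so every difference below lies between populations that had both been stimulated.

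Calmodulin is a small calcium-binding protein that, once loaded with calcium, binds and activates many enzymes. In the kinase cascade, the CaM kinase kinases phosphorylate CaM kinase I and CaM kinase IV, while CaM kinase II is a multimer that phosphorylates itself and can then stay active after calcium has fallen. CaM kinase I delta, the product of Camk1d, has been described in granulocytes, where CaM kinases have been tied to migration and the oxidative burst.

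The calmodulin genes are shown first at the level of sequence, because separate genes encode the same protein, and within the coding part they differ only by silent base changes. The coding sequences of Calm2 and Calm3 (GENCODE M21 transcripts, GRCm38, both genes on the minus strand, on chromosomes 17 and 7) have 450 bases each and differ at 78 of them, and both translate into the same 149 residues. Coding bases 61 to 150, counted from the start codon and beginning at the first calcium-binding loop, are printed below for Calm2 and Calm3, with capitals where the 2 genes differ.
Calm2: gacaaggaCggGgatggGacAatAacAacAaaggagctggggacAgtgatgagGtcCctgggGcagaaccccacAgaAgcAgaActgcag
Calm3: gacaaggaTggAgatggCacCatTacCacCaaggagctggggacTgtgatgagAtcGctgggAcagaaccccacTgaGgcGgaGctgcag
In this stretch Calm2 and Calm3 differ at 15 of 90 bases. The capitals are spread along the stretch, so no long run of bases is common to both.

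The longest run shared without a mismatch by the coding sequences of each paralog pair was short, and the 4 runs are printed to show how little sequence a read would have to span to be assigned.
Calm2 and Calm3: cagattgcagagttcaa
Camk1d and Camk1: gagaacgagattgccgt
Camk2g and Camk2d: atcaacaatggggactttgaggc
Camkk2 and Camkk1: gaggtcctggatga
These runs are 17, 17, 23 and 14 bases long. The kinase pairs are also further apart as proteins, with 73.3% identical residues for Camk1d and Camk1, 88.1% for Camk2g and Camk2d and 60.0% for Camkk2 and Camkk1. Transcripts of other genes that matched a member at 95% identity or more over at least 100 bases were found for Calm2 and Calm3, and none for the kinase genes. The Calm2 matches Gm7308 and Gm15720 held 66 and 112 counts over the 6 libraries, against 49474 for Calm2, and the Calm3 match Gm5881 was not analysed here. The sources used here do not state how reads with several matches were counted, so the Calm2 and Calm3 values carry that uncertainty.

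Calmodulin transcripts far outnumbered those of their kinases. By RPKM, Camk2g held most of the CaM kinase II family and Camk1d the largest share of the CaM kinase I family. Levels between genes are given as the authors' RPKM, which is per kilobase of the length listed for each gene in the files. Calm2 averaged 299 ± 36.1 RPKM and Calm3 49.0 ± 7.56 RPKM over the 6 libraries (SD, n = 6). Camk1d (8.34 ± 2.56 RPKM) and Camk2g (7.84 ± 2.10 RPKM) followed, and Camk1, Camkk2, Camkk1 and Camk2d lay at 1.03 ± 0.386, 0.845 ± 0.318, 0.710 ± 0.413 and 0.157 ± 0.0723 RPKM (SD, n = 6 each). Calm2 stood above Calm3 and Calm3 above Camk1d in 6 of 6 libraries with no overlap of their ranges. Camk1d and Camk2g overlapped, with Camk1d higher in 4 of 6 libraries. By RPKM, Camk1, Camkk2 and Camkk1 also overlapped each other in turn. Per listed length, Camk2d was below Camkk1 in 6 of 6.

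**Figure D1:**
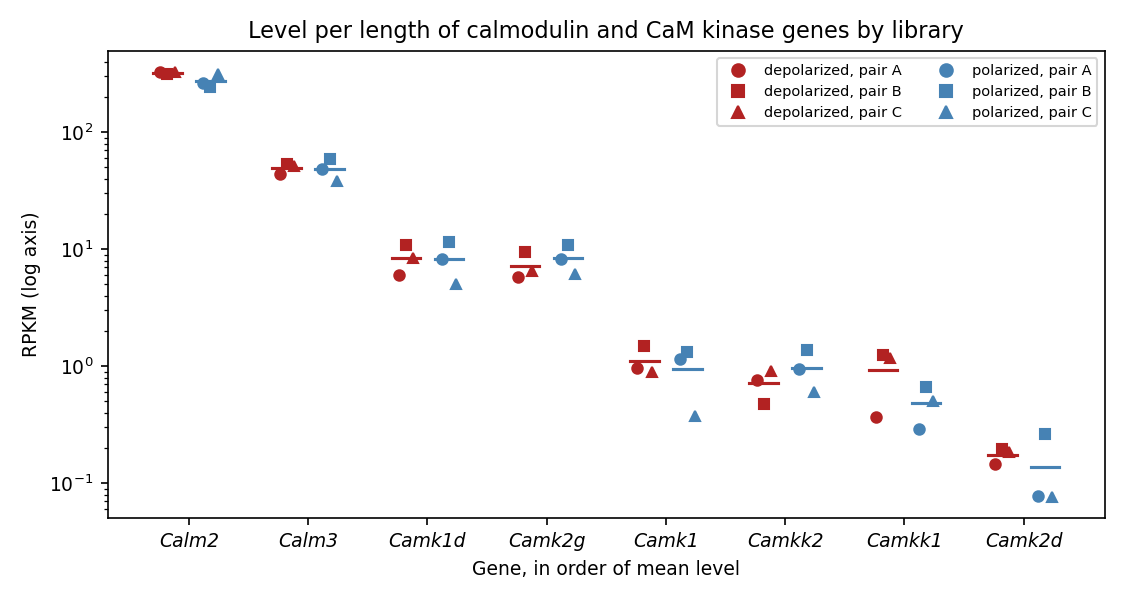
RPKM on a log axis for the 8 tested genes, with 1 point per library (depolarized left of polarized in each gene, marker shape for the pair) and a bar at each group's mean. The calmodulin genes lie above all kinase genes, and for every gene the points of the depolarized and polarized libraries overlap.

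The listed length was well above that of the longest transcript with a complete coding sequence for Camk1 (6067 against 1496 bases) and Camk2d (15928 against 5524 bases). Per kilobase of that transcript, a setting chosen after seeing the data, Camk1 came to 4.18 ± 1.57 and Camk2d to 0.453 ± 0.209 CPM per kilobase (SD, n = 6). Some orders between genes changed on that scale. Camk1 (1.53 to 5.99) no longer overlapped Camkk2 (0.472 to 1.38) or Camkk1 (0.317 to 1.37). Camk2d (0.222 to 0.755) overlapped Camkk1 and was not below it in every library. Camk1d was on average 8.37-fold above Camk1 per listed length and 2.20-fold above it per transcript length, and it was higher in 6 of 6 libraries on both scales. Camk2g was 52.9-fold above Camk2d per listed length and 18.4-fold per transcript length, also in 6 of 6 libraries.

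Between the calmodulin genes of the set, Calm2 had the larger share per length in every library. It made up 88.3%, 85.6% and 86.5% of the summed RPKM of Calm2 and Calm3 in depolarized libraries of pairs A, B and C, against 84.4%, 80.4% and 89.3% in the polarized ones. Polarized libraries held both the lowest and the highest share, so the groups overlapped. The mean share of Calm2 was 86.8% ± 1.36 in depolarized and 84.7% ± 4.47 in polarized libraries (SD, n = 3 each). Calm2 was between 4.09 and 8.34 times as abundant as Calm3 per listed length over the 6 libraries. The summed level of both genes ran from 502 to 604 CPM, a coefficient of variation of 8.07%, with 594 ± 9.54 CPM in depolarized and 521 ± 30.8 CPM in polarized cells (SD, n = 3 each). Per library total, without TMM scaling, the 3 depolarized sums, from 586 CPM, were all above the polarized ones, which reached 556 CPM. With TMM scaling this separation does not hold. Of all single genes tested, 10.4% had groups that did not overlap, and the sum was not tested. The summed level of the 7 kinase genes of the set ran from 68.4 to 148 CPM, a coefficient of variation of 28.8%.

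**Figure D2:**
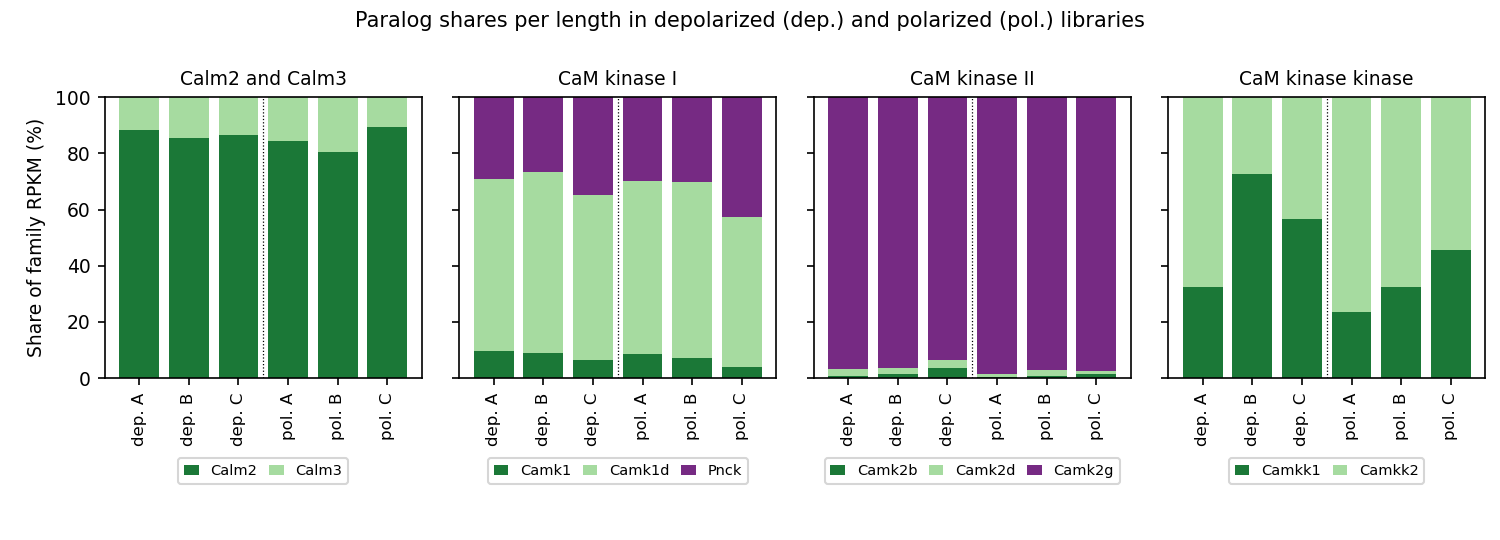
Share of the summed RPKM (percent) held by each of the genes named in a panel, in the 3 depolarized (dep.) and 3 polarized (pol.) libraries of pairs A to C. Camk2g holds 93.7% to 98.7% of its panel in every library, while Camkk1 ranges from 23.7% to 72.7%.

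Among kinases the choice of paralog was steep for CaM kinase II. Camk2g took 95.6% ± 1.73 of the RPKM of Camk2b, Camk2d and Camk2g in depolarized libraries and 97.7% ± 0.883 in polarized libraries (SD, n = 3 each). In the CaM kinase I family Camk1d held 61.4% ± 2.96 in depolarized and 59.1% ± 5.17 in polarized libraries, with Pnck, the gene of CaM kinase I beta, at 30.3% ± 4.31 and 34.3% ± 7.38 (SD, n = 3 each). Pnck is outside the set. These shares use the listed length, which for Camk1 is well above its transcript length. Per transcript length the mean levels were 8.89 (Camk1d), 5.55 (Pnck) and 4.18 (Camk1) CPM per kilobase, so Camk1 would hold a larger share. The CaM kinase kinases showed no steady choice: Camkk1 held 32.4%, 72.7% and 56.5% of the pair's RPKM in depolarized libraries A, B and C and 23.7%, 32.4% and 45.7% in polarized libraries.

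Depolarized against polarized cells, none of the 8 tested genes passed the test, and the libraries of the groups overlapped for every one. With the pair as a block, edgeR's quasi-likelihood test gave 0 of 8 genes at an adjusted p under 0.05, with adjusted p from 0.733 to 1, and 1 (Camkk1) at an unadjusted p under 0.05. DESeq2 with the same block gave 0 of 8 at either threshold, and called 0.16% of all genes tested higher and 0.231% lower. Over all 9971 genes tested, edgeR called 0.0802% higher and 0.241% lower in depolarized cells, and 6.58% had an unadjusted p under 0.05. Of the 8, 4 were fitted above 0 and 4 below 0. The median log2 fold change of the members was 0.08, against -0.0022 over all genes tested. Separation of the groups was seen in 0 of 8 members and in 10.4% of all genes tested. In bulk libraries, fewer cells of a type and less RNA per cell cannot be told apart. Differences within pairs are given per library total and fitted values after TMM scaling. On average this scaling lowers depolarized against polarized by 0.07 on the log2 scale. It weighs most in pair C, with factors of 1.03 for the depolarized and 0.876 for the polarized library. The small positive differences of Calm2 and Camk2g in pair C hold per library total only.

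**Figure D3:**
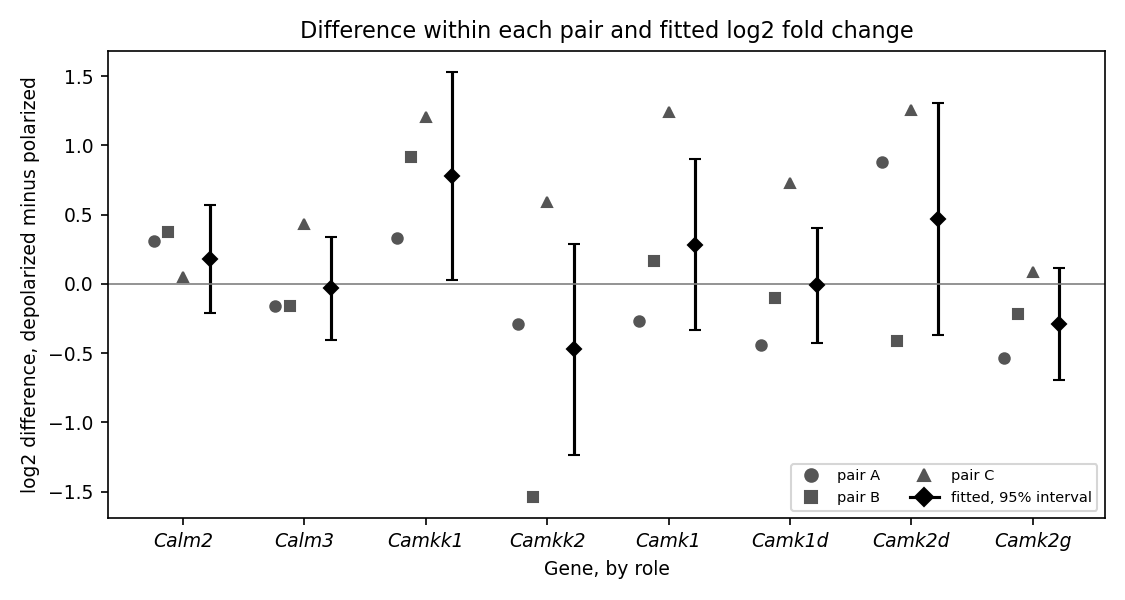
log2 difference, depolarized minus polarized, within pairs A, B and C (grey markers) beside the fitted log2 fold change with its 95% interval (black diamond) for each tested gene. The interval of Camkk1 runs from 0.03 to 1.53 and those of the other 7 genes include 0.

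Calm2 (ENSMUSG00000036438, chromosome 17, 87433412 to 87446935 in GRCm38) lay at nearly the same level in all depolarized libraries, and the polarized libraries of pairs A and B lay below them. Depolarized cells held 480.1, 464 and 480.3 CPM in pairs A, B and C, and polarized cells 387, 358 and 465 CPM. The polarized library of pair C was within the range of the depolarized ones, so the groups overlapped. The mean was 475 ± 9.55 CPM in depolarized and 403 ± 55.3 CPM in polarized cells (SD, n = 3 each). Per library total, the differences within pairs were 0.31, 0.38 and 0.05 on the log2 scale, above 0 in 3 of 3. That of pair C is above 0 only without TMM scaling. The fitted log2 fold change was 0.18 ± 0.18 (SE), with a 95% interval from -0.21 to 0.57, and its adjusted p in edgeR was 1. Without pairs A and B in turn it was 0.0808 and 0.0994, and without pair C it was 0.36 with an edgeR adjusted p of 0.0141, a fit in which 4.95% of all genes tested were called higher and 5.13% lower.

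Calm3 (ENSMUSG00000019370, chromosome 7, 16915379 to 16924114) was at 105, 129 and 124 CPM in depolarized cells and 118, 144 and 91.9 CPM in polarized cells of pairs A, B and C. Polarized libraries thus held both the highest and the lowest value. The fitted log2 fold change was -0.03 ± 0.18 (SE), with a 95% interval from -0.40 to 0.34, and pairs A and B lay below 0 (-0.16 each) and pair C above it (0.43). The fitted value was 0.0044 without pair A and 0.05 without pair B.

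The kinases that act upstream went opposite ways as fitted, with wide intervals. Camkk1 (ENSMUSG00000020785, chromosome 11, 73019008 to 73042073), a CaM kinase kinase gene, held 28, 90 and 74 counts in depolarized libraries A, B and C and 21, 42 and 37 counts in polarized libraries. In CPM these were 1.37, 4.69 and 4.38 in depolarized and 1.09, 2.47 and 1.89 in polarized libraries. The depolarized library was higher within each pair, while that of pair A was below the polarized libraries of pairs B and C. The log2 fold change was 0.78 ± 0.35 (SE), 1.72-fold higher as fitted, with an unadjusted p of 0.0420 and an adjusted p of 0.733 in edgeR. Differences within pairs were 0.33, 0.92 and 1.20.

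Camkk2 (ENSMUSG00000029471, chromosome 5, 122731173 to 122779410), whose product also activates AMP-activated kinase, was at 3.73, 2.29 and 4.38 CPM in depolarized and 4.55, 6.69 and 2.91 CPM in polarized libraries, in the order of pairs A to C. Its largest gap was in pair B, where the depolarized library held 44 counts and the polarized one 114. The pairs disagreed in direction, with log2 differences of -0.29, -1.54 and 0.59. The log2 fold change was -0.47 ± 0.36 (SE, edgeR adjusted p 1), and it was 0.07 without pair B and -0.88 without pair C.

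Camk1d (ENSMUSG00000039145, chromosome 2, 5293457 to 5714515) had the highest mean CPM of the kinase genes of the set and varied more between pairs than between groups. It was at 44.8, 80.2 and 62.1 CPM in depolarized cells of pairs A to C and at 60.8, 86.2 and 37.5 CPM in polarized cells. Depolarized cells were lower in pairs A and B (-0.44 and -0.10 on the log2 scale) and higher in pair C (0.73). The fitted log2 fold change was -0.0083 ± 0.20 (SE), with a 95% interval from -0.42 to 0.41 (edgeR adjusted p 1). It was -0.26 without pair C, 0.18 without pair A and 0.06 without pair B.

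Camk1 (ENSMUSG00000030272, chromosome 6, 113334124 to 113343984), which encodes CaM kinase I alpha, was at 5.84, 8.96 and 5.44 CPM in depolarized and 7.04, 7.99 and 2.29 CPM in polarized libraries. The polarized library of pair C was the lowest by a wide margin. The log2 fold change was 0.28 ± 0.29 (SE, edgeR adjusted p 1), and -0.04 without pair C. On the opposite strand Ogg1 overlaps 3.82% of the exon length of Camk1 and held 829 counts against 700, and without a stated strand setting their reads cannot be told apart there. Camk4 (ENSMUSG00000038128), the gene of CaM kinase IV, known from T cells and neurons, had 0 counts over the depolarized libraries and 1 over the polarized libraries. A level of 3 counts would be 0.0531 CPM in the depolarized and 0.0536 CPM in the polarized group, so neither expression nor a difference was detectable at this depth. All 10 T cell markers had counts, with a summed level of 15.9 to 23.8 CPM in depolarized and 18.5 to 24.3 CPM in polarized libraries.

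Camk2g (ENSMUSG00000021820, chromosome 14, 20734875 to 20794088), which encodes CaM kinase II gamma, was at 21.3, 35.0 and 24.0 CPM in depolarized cells of pairs A to C and 30.8, 40.6 and 22.5 CPM in polarized cells. Per library total, pairs A and B were lower in depolarized cells and pair C slightly higher, at -0.53, -0.22 and 0.09 on the log2 scale. The log2 fold change was -0.29 ± 0.19 (SE), with a 95% interval from -0.69 to 0.11 and an edgeR adjusted p of 0.962. Camk2d (ENSMUSG00000053819, chromosome 3, 126596302 to 126844913), of CaM kinase II delta, rested on 157 counts over the depolarized and 119 over the polarized libraries. It was at 2.31, 3.13 and 2.96 CPM in depolarized and 1.24, 4.17 and 1.22 CPM in polarized libraries, so the polarized libraries held both extremes. Its log2 fold change was 0.47 ± 0.40 (SE, edgeR adjusted p 1), and it was 0.25 without pair A, 0.998 without pair B and 0.18 without pair C.

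The ratio of paralogs within a library does not depend on library scaling, and the length of each gene cancels from its difference between groups. Of the 4 ratios compared, Camkk1 over Camkk2 and Camk1 over Camk1d were higher in depolarized cells in 3 of 3 pairs. The first gave log2 differences of 0.62 in pairs A and C and 2.45 in pair B, a mean of 1.23 ± 1.06 (SD, n = 3). For Camk1 over Camk1d the mean was 0.32 ± 0.18 (SD, n = 3). Each had a two-sided exact sign-flip permutation p of 0.25, which is the smallest that 3 pairs allow, so the design could not pass the threshold, also before adjusting over the 4 ratios. Calm3 over Calm2 differed by -0.47, -0.54 and 0.39 and Camk2g over Camk2d by -1.41, 0.20 and -1.17 on the log2 scale (exact sign-flip permutation p of 0.5 for each).

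Other genes of the pathway were taken from 4 lists, and 0 of their 38 tested genes were called by edgeR or by DESeq2 with the pairs as a block. Of 11 other genes of these families 2 were tested, and 5 of the 11 had no counts. Those tested were Pnck, at 8.09 ± 2.14 CPM in depolarized and 8.95 ± 1.76 CPM in polarized cells, and Camk2b, at 1.35 ± 0.934 and 0.610 ± 0.266 CPM (SD, n = 3 each). Camk2b, which encodes CaM kinase II beta, was fitted at 0.94 ± 0.52 on the log2 scale (SE, edgeR adjusted p 0.871) and was above 0 in 3 of 3 pairs.

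Other kinases regulated by calmodulin had 10 of 16 genes tested and a median of -0.13. Of these 10, 1 had an unadjusted p under 0.05 in edgeR, against 6.58% of all genes tested. Eef2k, whose product phosphorylates an elongation factor of translation, was the most abundant, at 45.3 ± 2.74 CPM in depolarized and 35.6 ± 1.58 CPM in polarized cells (SD, n = 3 each). It was above 0 in 3 of 3 pairs, with a log2 fold change of 0.28 ± 0.18 (SE, edgeR adjusted p 0.945). Next were the phosphorylase kinase subunit gene Phkg2, with a log2 fold change of -0.13 ± 0.19, and the inositol trisphosphate kinase gene Itpkb, with -0.14 ± 0.25 (SE). Dapk2, a death-associated protein kinase gene named after its values were seen, was at 4.28 ± 2.34 CPM in depolarized and 6.43 ± 2.37 CPM in polarized cells (SD, n = 3 each). Its log2 fold change was -0.71 ± 0.28 (SE, edgeR adjusted p 0.585), and it was below 0 in 3 of 3 pairs.

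Genes of proteins that bind calmodulin had 10 of 17 tested (1 of the 17 was not analysed here), with a median log2 fold change of 0.03. Of these 10, 0 had an unadjusted p under 0.05 in edgeR, against 6.58% of all genes tested. The scaffold gene Iqgap1 was at 2466 ± 143 CPM in depolarized and 2290 ± 504 CPM in polarized cells. The myosin gene Myo1f was at 963 ± 149 and 756 ± 106 CPM, and Marcks, whose product binds calmodulin and membranes, at 509.6 ± 134 and 375 ± 61.2 CPM in depolarized and polarized cells (SD, n = 3 each). Genes of CaM kinase targets and phosphatases had 16 of 19 tested, with a median of -0.02. Against 6.58% of all genes tested, 2 of these 16 had an unadjusted p under 0.05 in edgeR. Named after their values were seen, these were the AMP-activated kinase subunit gene Prkab2 and the histone deacetylase gene Hdac7, with log2 fold changes of 0.79 ± 0.33 and 0.97 ± 0.43 (SE) and adjusted p of 0.652 and 0.717 in edgeR. Among the most abundant, the related gene Hdac4 had a log2 fold change of -0.04 ± 0.17 (SE), the actin regulator gene Vasp -0.28 ± 0.18 and the kinase gene Akt1 -0.02 ± 0.19. Without pair C, 2 genes of each of these last lists were called by edgeR: Myo1f (log2 fold change 0.54) and Pcp4 (-3.14) in the first, Hdac5 (-0.81) and Vasp (-0.45) in the second. In that fit 4.95% of all genes tested were called higher and 5.13% lower. Pcp4 and Hdac5 are named after their values were seen, and Pcp4, with 42 counts over the 6 libraries, was below the filter with all pairs.

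The highest CPM of most members fell in pair B, while the lowest was spread over libraries of both groups. These CPM are per library total, and the polarized library of pair C had the lowest TMM factor (0.876). Of the 8 tested genes, 7 had their highest CPM in a library of pair B, against 45.1% of all genes tested. These were 5 in the polarized and 2 in the depolarized one, against 24.6% and 20.5% of all genes tested. Pair B held the lowest CPM of 2 of the 8 (Calm2 and Camkk2), near the 23.1% of all genes tested. The polarized library of pair C was the lowest for 4 of them (Calm3, Camk1, Camk1d and Camk2d), against 36.1% of all genes tested. That library stood apart from its group: the chi-square of its counts per degree of freedom was 109 and 114 against the other polarized libraries, and between 32.9 and 51.0 for the other pairs of libraries within a group. Total counts ran from 16904969 to 20381489 per library. The depolarized library of pair B is the only one with run label 1 in its title, and its part in these values was not tested.

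Markers of early neutrophil stages were lower in the depolarized library of every pair, though the groups overlapped. Every marker in each list used had counts. The summed level of 12 early neutrophil markers was 13258, 17576 and 9679 CPM in depolarized libraries A, B and C and 17350, 31059 and 25059.6 CPM in polarized libraries. Of the 12, 8 were called lower by edgeR, against 0.241% of all genes tested. The 10 mature neutrophil markers, 0 of them called by edgeR, summed to between 160049 and 179844 CPM in depolarized and between 180115 and 219871 CPM in polarized libraries. Per library total these sums were thus also lower in depolarized cells, with no overlap between the groups. This separation does not hold with TMM scaling. Of all single genes tested, 10.4% had groups that did not overlap per library total, and the marker sums were not tested. Markers of B cells (8 genes) summed to between 478.4 and 941 CPM in depolarized and between 374 and 525 CPM in polarized libraries, and those of monocytes (6 genes) to between 816 and 903 and between 896 and 1173 CPM. Eosinophil markers (5 genes) were highest in pair B, at 165 CPM in the depolarized and 423 CPM in the polarized library, against 44.2 to 55.8 CPM in the other depolarized and 36.7 to 169 CPM in the other polarized libraries. Summed levels of erythroid markers were 19.6 to 73.6 CPM in depolarized and 30.8 to 46.4 CPM in polarized libraries, those of megakaryocytes and platelets 0.343 to 1.48 and 0.939 to 1.22 CPM, and those of NK cells, 1 of them called lower, 0.0491 to 1.12 and 2.17 to 11.8 CPM. The part of these cells and stages in the values of the calmodulin and kinase genes was not tested.

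**Figure D4:**
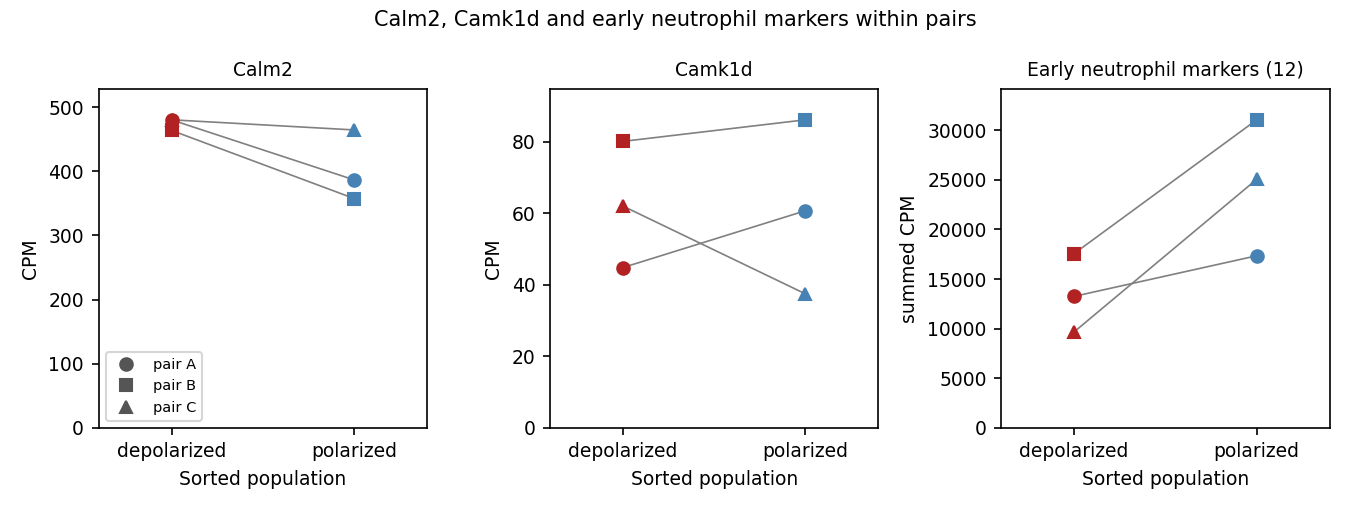
CPM of Calm2 and Camk1d and the summed CPM of 12 early neutrophil markers, depolarized left and polarized right, with lines joining the libraries of a pair. Per library total, early markers are lower in the depolarized library of every pair and Calm2 is higher in it. Camk1d is lower in pairs A and B and higher in pair C.

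Among 2649 tested genes with a mean log2 CPM of at least 5, those whose log2 CPM over the 6 libraries was most like that of Calm2 were Sirpb1b, Srp14, Lilra6, Haus8 and Eed, with Pearson's r from 0.986 to 0.996. For Camk1d they included Orai2, Ifnar2, Mrtfa and Mta2, with r from 0.985 to 0.988. They were picked as the highest of that many values, so r describes the likeness and carries no test. Orai2 encodes a store-operated calcium channel subunit.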

How the data were processed

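RNA was sequenced from 6 libraries, 3 of depolarized and 3 of polarized neutrophils. The submitters' processing notes name GRCm38, STAR in version 2.0.4b, featureCounts in version 1.45, Subread and bcl2fastq. The deposited counts are whole and raw. The deposited CPM is the count scaled to the library total, and the deposited RPKM is that CPM per kilobase of listed length. The sources used here state neither a strand setting, nor the treatment of reads with several matches, nor an annotation release. Floors rest on counts and cover counting error only, and PCR copies were not told apart. The intervals come from the edgeR fit described below, which also estimates variation between libraries.

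Counts were tested in R 4.3.3 with edgeR 4.0.16 (filterByExpr, TMM, quasi-likelihood F test, group plus replicate block, 2 residual degrees of freedom), with Benjamini-Hochberg adjustment over 9971 genes and a threshold of 0.05. DESeq2 1.42.0 was an alternative. Standard errors were taken as the log2 fold change over the root of F. Intervals used the total degrees of freedom of the fit, which add prior ones estimated over all genes tested to the residual ones. Pairing rests on the series design text. Deviations from group means correlated at r = 0.0752, 0.269 and 0.0349 across genes in pairs A, B and C. Between libraries of different codes r ran from -0.215 to 0.135, so only pair B stood above all of these. Ratios used counts plus 0.5. Transcripts were compared with blastn 2.17.0 and Biopython 1.88. The test was checked on simulated data. All 9 members were named, with the 3 most abundant genes of each pathway list, any called gene and the 5 genes most like the most abundant calmodulin and kinase gene of the set. Results of some genes are not reported here. Members and lists were chosen with earlier results of these data known.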

Additional observations from a re-analysis of the deposited data

How the results depend on the processing

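No member was called under any alternative with all pairs. Over all genes tested, the numbers called depended on the settings: without the replicate block edgeR called 0 higher and 0 lower (511 at an unadjusted p under 0.05), DESeq2 called 16 higher, a fit with no low-count filter 50 higher and 96 lower, and a stricter filter 12 lower, against 8 higher and 24 lower. Leaving out 1 pair gave 9 to 500 higher and 36 to 518 lower. With a pair left out, fitted log2 fold changes ran from 0.0808 to 0.36 for Calm2 (called without pair C, edgeR adjusted p 0.0141), from -0.15 to 0.0547 for Calm3, from -0.88 to 0.0653 for Camkk2, from -0.0356 to 0.54 for Camk1, from -0.26 to 0.18 for Camk1d, from 0.18 to 0.998 for Camk2d, from -0.36 to -0.20 for Camk2g and from 0.67 to 0.94 for Camkk1. Camk1d was fitted at 0.000604 with no filter, the cause of which was not tested. Calm2, Camk2d, Camk2g and Camkk1 kept their direction under all alternatives in which they were tested. Of all member values 62 kept direction and call, 7 changed sign and 1 became a call. Per transcript length, the mean log2 ratio was -1.14 for Camk1 over Camk1d and 4.20 for Camk2g over Camk2d. With 3 pairs, the intervals of Camkk1, Camkk2, Camk1 and Camk2d are wide, and their low counts limit them.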
